A study of Mus musculus with 6 samples.

Results

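The regions described here are the ATAC-seq peaks that lie nearest to UDP-glucuronosyltransferase (UGT) and cytosolic sulfotransferase (SULT) genes of mouse liver. ATAC-seq uses the Tn5 transposase to cut and tag open DNA, so a peak marks an accessible site. Peaks of 6 libraries that shared at least 1 bp were merged, and a region was taken when its midpoint lay, within 50 kb, nearest to the span of a protein-coding gene whose symbol starts with Ugt1, Ugt2, Ugt3 or Sult. This gave 212 of 109853 regions, at 40 of 42 such genes (21 UGT and 21 SULT), with none at Sult6b1 and Ugt2a2.

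The double knockout group (dKO, 3 libraries) and the control group (3 libraries) came from male mice that all carried loxP-flanked (F/F) alleles of 2 genes, Ncor1, which encodes the nuclear receptor corepressor NCOR1, and another. The dKO mice received an adeno-associated virus (AAV) with Cre recombinase (AAV-Cre) and the control mice AAV-eGFP. Livers were taken on day 5 after the virus at zeitgeber time 10, and HNF4a-positive nuclei (HNF4a is a transcription factor of hepatocytes) were sorted and taken through Omni-ATAC. Not given in the sources used here are the strain, the age, the promoter that drives Cre, and whether the libraries came from separate animals. Per its title, the study concerns how these corepressors act with the glucocorticoid receptor in hepatic gluconeogenesis. The p-values measure only the spread among these libraries, which may be technical.

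The dKO lists held 84614, 81667 and 71473 peaks and the control lists 83371, 72417 and 68316. The value of a region in a library is the highest normalized tag count of its peaks there, a signal scaled to library depth and written below as normalized tags. The deposited peaks had one narrow fixed width in dKO 1, dKO 2 and control 1, called the narrow-peak libraries below, and a larger one in dKO 3, control 2 and control 3, the wide-peak libraries. Fold changes were therefore also taken within each of these width classes. dKO 3 stood nearer to the controls (r across regions 0.93 to 0.95) than dKO 1 and dKO 2 did (0.85 to 0.90). A peak had to stand at least 4-fold above its local surroundings, so a region without a peak was not shown to be closed. Apoa1, a gene that hepatocytes transcribe strongly, had peaks in dKO 2 and control 1 only. All 6 hepatocyte marker genes had regions. Of the Kupffer cell markers, Vsig4 and Timd4 had none, and no Kupffer marker region was called in all 6 libraries.

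UGT enzymes join glucuronic acid from UDP-glucuronic acid to bilirubin, bile acids, steroids and drugs in the endoplasmic reticulum. SULT enzymes transfer sulfate from the activated donor PAPS to phenols, catecholamines, steroids and bile acids in the cytosol. Both reactions make lipophilic compounds more water-soluble for export into bile or blood, and liver is a main site of each. In rodents the expression of many of these genes depends on the hepatocyte factor HNF4a, on xenobiotic receptors such as CAR and PXR, and on sex hormones. The genes lie in arrays of near-identical copies, and the handling of reads that match several copies is not stated in the sources used here.

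The 4 start windows below are printed because the regions over them were lower in dKO nuclei or, at Sult2a8, called in control libraries only, as described with each gene further on. Each runs from 250 bases before to 50 bases after an annotated start (RefSeq, GRCm38.p6, the same build as mm10), 5′ to 3′ on the strand of the gene. All 4 genes are on the minus strand. Capitals mark the letters AGAACA (part of the glucocorticoid receptor element) and AGGTCA (the core shared by many nuclear receptor elements) on either strand, with no overlap between them. The windows are chr7:14438502-14438801 for the inner start of Sult2a8, chr7:126676369-126676668 for Sult1a1, chr5:87538146-87538445 for the outer start of Sult1b1 and chr5:86926454-86926753 for Ugt2b1.
Sult2a8: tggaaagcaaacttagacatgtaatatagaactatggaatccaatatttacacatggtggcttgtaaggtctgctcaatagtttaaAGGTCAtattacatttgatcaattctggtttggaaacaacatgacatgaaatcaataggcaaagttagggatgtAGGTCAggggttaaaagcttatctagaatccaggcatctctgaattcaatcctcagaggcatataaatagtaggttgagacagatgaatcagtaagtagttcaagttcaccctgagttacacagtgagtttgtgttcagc
Sult1a1: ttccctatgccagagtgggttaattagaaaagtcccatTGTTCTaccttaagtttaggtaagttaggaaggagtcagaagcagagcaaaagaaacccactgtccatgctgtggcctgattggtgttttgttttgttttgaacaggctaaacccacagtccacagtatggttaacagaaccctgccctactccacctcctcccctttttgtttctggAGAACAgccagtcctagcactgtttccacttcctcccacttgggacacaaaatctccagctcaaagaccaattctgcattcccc
Sult1b1: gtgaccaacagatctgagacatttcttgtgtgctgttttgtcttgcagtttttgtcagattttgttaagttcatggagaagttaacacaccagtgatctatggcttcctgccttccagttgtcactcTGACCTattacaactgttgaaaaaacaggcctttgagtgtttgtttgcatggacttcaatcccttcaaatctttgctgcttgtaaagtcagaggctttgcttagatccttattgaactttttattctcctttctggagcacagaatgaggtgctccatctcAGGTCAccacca
Ugt2b1: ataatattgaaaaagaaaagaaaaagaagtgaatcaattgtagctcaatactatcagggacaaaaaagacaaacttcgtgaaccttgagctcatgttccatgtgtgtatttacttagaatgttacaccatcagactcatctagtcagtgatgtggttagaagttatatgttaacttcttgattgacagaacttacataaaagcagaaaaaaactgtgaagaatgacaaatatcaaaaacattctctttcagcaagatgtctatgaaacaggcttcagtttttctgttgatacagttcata

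The Sult2a8 window held AGGTCA 2 times, the nearest 90 bp before the start, and the outer Sult1b1 window also held it 2 times, the nearest 38 bp after the start. The Sult1a1 window held AGAACA 2 times, the nearest 34 bp before the start. The Ugt2b1 window held none of these letters, nor CAAAGTC, an HNF4-type element that was searched too and found in 1 of 39 windows of member genes (2.56%, against 4.44% of all windows). RefSeq windows were matched for 36 of the 42 genes, 39 windows in all. AGAACA stood in 13 of the 39 (33.3%), against 19.0% of all 32851 windows, and AGGTCA in 10 (25.6%, against 16.3%). At Ugt2b36, Ugt2b5, Ugt2b37 and Ugt2b38, AGGTCA stood in the same stretch of letters, 22 to 39 bp before the start. Windows of such copies are not independent, and the difference in shares was not tested. These matches describe letters in a window and do not show that a factor bound there.

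More regions at these genes fell than rose in dKO nuclei, and most did not pass the test. Of the 212 regions, 78 (36.8%) were called in all 6 libraries, against 47.1% of all regions, and 50 (23.6%) in 1 library only, against 16.6%. The 78 shared regions lay at 29 genes and were compared by limma on log2(normalized tags + 1), adjusted by Benjamini-Hochberg over all 51749 shared regions. At an adjusted p of 0.05, 3 were higher in dKO (3.85%, against 8.19% of all shared regions) and 18 were lower (23.1%, against 11.6%), while 57 passed in neither direction. Leaving out dKO 2 gave 0 higher (against 2.43% of all shared regions) and 6 lower (7.69%, against 2.71%). Leaving out dKO 1 gave 0 higher (against 3.16%) and 10 lower (12.8%, against 3.98%). Leaving out dKO 3, control 1 or control 2 gave 1 higher and 21, 15 and 19 lower, and leaving out control 3 gave 3 and 13. In these fits the lower shares were 26.9%, 19.2%, 24.4% and 16.7%, against 15.7%, 8.03%, 9.16% and 8.62% of all shared regions. With all libraries kept, 85.7% of the called regions at these genes were lower, and 58.6% of those over all regions. Without centring of the libraries the same shares were 100% and 64.5%. The median log2 fold change (dKO minus control) was -0.23, against -0.02 over all shared regions, and 59 of the 78 values were below 0. The median was -0.20 within the narrow-peak libraries and -0.22 within the wide-peak ones. All 3 dKO libraries lay below all 3 control libraries at 19 of the 78 regions, against 15.8% of all shared regions, and above them at 4, against 12.6%.

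dKO 3 was the highest dKO library in 17 of the 18 lower regions, and over all regions in 5796 of the 5995 lower ones. All 21 called regions had the same direction in both width classes, as did 5990 of the 5995 lower and all 4240 higher regions over all regions. The classes are parts of the libraries that gave the calls, so this is no separate test. The fall was larger within the narrow-peak libraries in 13 of the 18 (72.2%), against 5292 of the 5995 lower regions over all regions (88.3%). Markers of hepatocytes moved the same way. Of 23 shared regions at the 6 hepatocyte markers, 12 (52.2%) were lower, 0 were higher, and the median log2 fold change was -0.54. For this list and the marker lists below, the shares over all shared regions were 11.6% lower and 8.19% higher. Normalized tags summed over the hepatocyte marker regions ran from 882 to 997 in dKO libraries and from 982 to 1643 in control libraries. In this sum and those below a missing peak counted as 0, so the sums also follow peak calling. Apoa1 added 159 in dKO 2 and 71.1 in control 1 and nothing elsewhere. Hnf4a summed to 367, 326 and 379 in dKO 1, 2 and 3, and to 646, 410 and 291 in control 1, 2 and 3. Of 23 shared regions at 5 endothelial markers, 4 were lower and 1 was higher, with sums of 334 to 480 in dKO and 398 to 507 in control. Kupffer cell marker regions summed to 3.71 to 23.9 in dKO and 7.72 to 13.6 in control. Stellate (9 shared regions), cholangiocyte (8) and lymphocyte (3) markers had 0 lower regions by limma, with 1 higher region each in the stellate and cholangiocyte lists, while Krt19, Krt7, Cd79a and Dcn had no region in any library. In bulk nuclei, fewer nuclei open at a site and less accessibility per nucleus cannot be told apart. The part of cell composition in the results below was not tested.

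**Figure D1:**
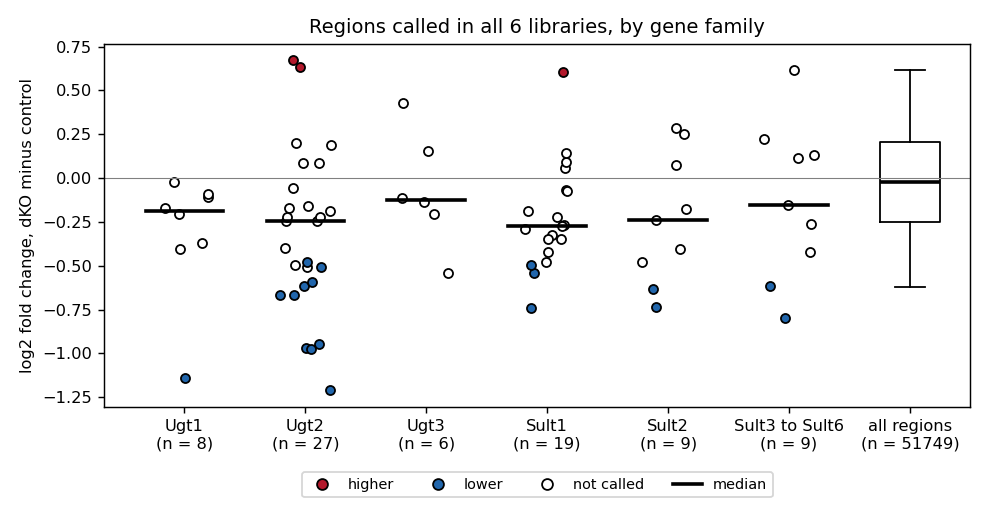
Each point is a region called in all 6 libraries, with its log2 fold change (dKO minus control, on log2(normalized tags + 1)) on the y axis and its gene family on the x axis, and bars are medians. The box on the right gives the median and quartiles of all 51749 shared regions, with whiskers to outer percentiles and the tails beyond them not drawn. The Ugt2 family holds 10 of the 18 lower regions and 2 of the 3 higher ones, and every family median lies below 0, also under the 3 other scalings tried.

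By position, 12 shared regions lay over an annotated start window, and of these 0 were higher and 3 were lower (25.0%, against 11.3% of all such regions). Of 31 shared regions inside a gene span, 2 were lower (6.45%, against 9.95%). Of 47 outside the spans, 16 were lower (34.0%, against 12.7%). The difference between these positions was not tested.

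**Figure D2:**
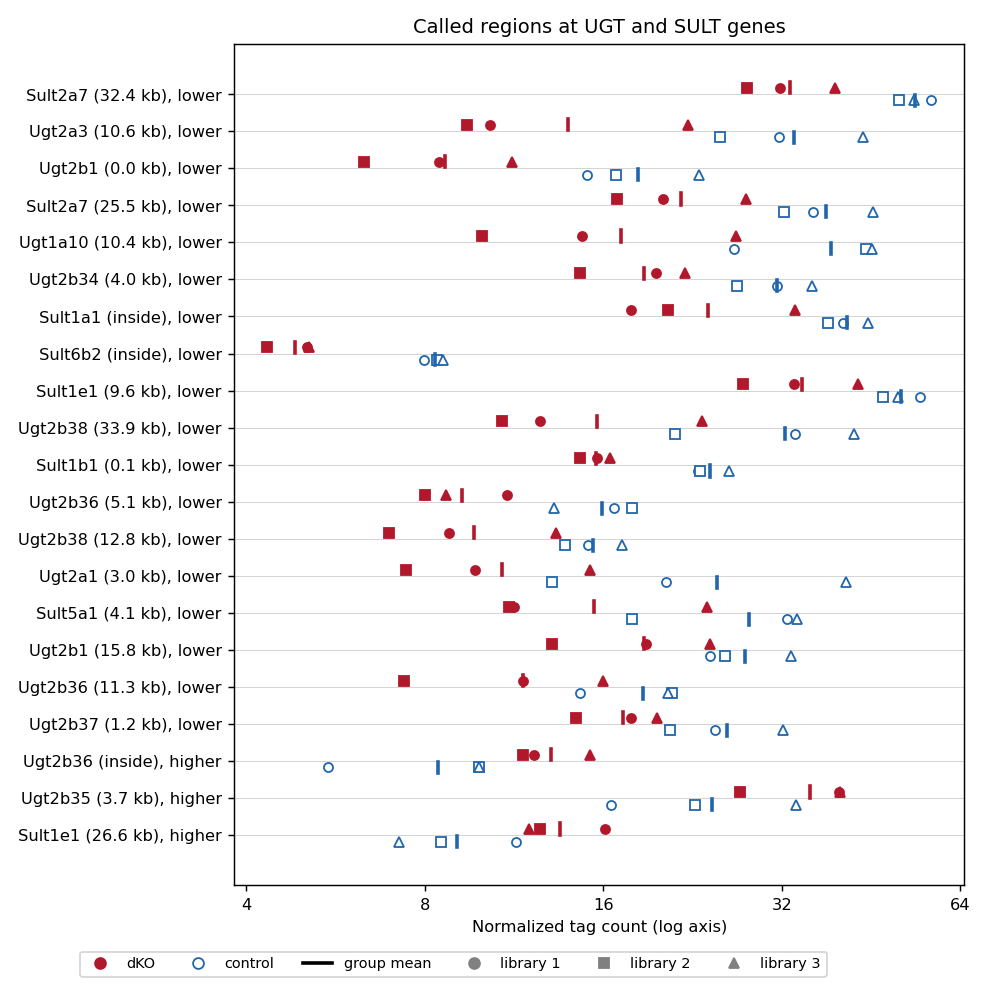
Normalized tags (x axis, log scale) of each library at the 21 called regions, with the distance to the span of the linked gene in parentheses. Filled red symbols are dKO and open blue symbols control, the shape gives the library number, and vertical bars are group means. The dKO symbols lie left of all control symbols in 12 of the 18 lower regions (66.7%), against 5132 of the 5995 lower regions over the whole data (85.6%).

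The Ugt1a locus encodes several enzymes from alternative first exons joined to shared last exons, and Ugt1a1 is the enzyme that conjugates bilirubin. Its 9 gene spans are nested on chromosome 1, with 7 ending at the same base, so which of them a region is linked to is arbitrary inside the locus. Of 38 regions, 8 were shared (median log2 fold change -0.19). Among the shared ones 1 was lower (12.5%, against 11.6% of all shared regions) and 0 were higher (against 8.19%). The lower region lay 10379 bp before the Ugt1a10 start (chr1:88044946-88045118). It had 14.7, 10 and 26.8 normalized tags in dKO 1, 2 and 3, against 26.6, 44.4 and 45.4 in control 1, 2 and 3. dKO 3 slightly exceeded control 1, so the groups overlapped. The means were 17.2 ± 8.67 in dKO and 38.8 ± 10.6 in control (SD over 3 libraries each). On the log2 scale the region fell by 1.14 (SE 0.23, limma adjusted p = 0.00583).

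The strongest region at any UGT or SULT gene lay inside Ugt1a1, 1885 bp after its start (chr1:88213745-88213943). Here and below, strongest means the highest mean over the libraries that called a peak. A region called in 1 library can therefore rank first. It had 101, 80.1 and 104 normalized tags in dKO and 116, 127 and 99.2 in control. The groups overlapped, and the log2 fold change of -0.20 (SE 0.12) did not pass (limma adjusted p = 0.234). The start window of Ugt1a1 itself had a peak in control 1 only (47.6 normalized tags). The strongest Ugt1a5 region (chr1:88179709-88179942) had 23.5, 17.8 and 30.1 in dKO and 30.6, 37.0 and 28.3 in control (log2 fold change -0.37, SE 0.14, adjusted p = 0.0776). At the start of Ugt1a9 a region (chr1:88070793-88071038) had 15.2, 11.4 and 21.5 in dKO and 10.3, 23.7 and 21.9 in control (log2 fold change -0.11, SE 0.24, adjusted p = 0.793). Neither passed, and at Ugt1a9 control 1 was the lowest of the 6 libraries.

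The strongest regions linked to the other Ugt1a spans were called in some libraries only, so they were outside the test over all 6 libraries. A region linked to Ugt1a8 (chr1:88195778-88195979) had 32, 21.7 and 31.2 in dKO, 15.9 in control 1, 22.8 in control 2 and no peak in control 3. When regions called in at least 3 libraries were tested, with missing values left out, its log2 fold change was 0.58 (limma adjusted p = 0.0408). One linked to Ugt1a6a, an enzyme for planar phenols, lacked a peak in dKO 3 only (25.3 and 15.1 in dKO 1 and dKO 2, against 14.6, 22.6 and 17.9 in control), and did not pass the same wider test (log2 fold change 0.25, limma adjusted p = 0.428). Those of Ugt1a7c, Ugt1a6b and Ugt1a2 were each called in 1 library, with 18.9 in dKO 1, 20.9 in control 1 and 16.1 in control 1. Another Ugt1a6b region (chr1:88109099-88109399) had 27.5 in dKO 1, 15.6 in dKO 2, 20.7 in control 1 and 18.4 in control 3. Another Ugt1a7c region (chr1:88103137-88103298) had 19.1 in dKO 1, 13.9 in dKO 2 and 13.9 in control 1. Neither passed the wider test. The locus also held a region in all dKO and no control libraries (chr1:88043141-88043313, 9.38, 4.97 and 10.1), 12184 bp before the Ugt1a10 start. A region linked to Ugt1a6b was in all control and no dKO libraries (chr1:88115014-88115264, 10.5, 11.2 and 9.42).

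**Figure D3:**
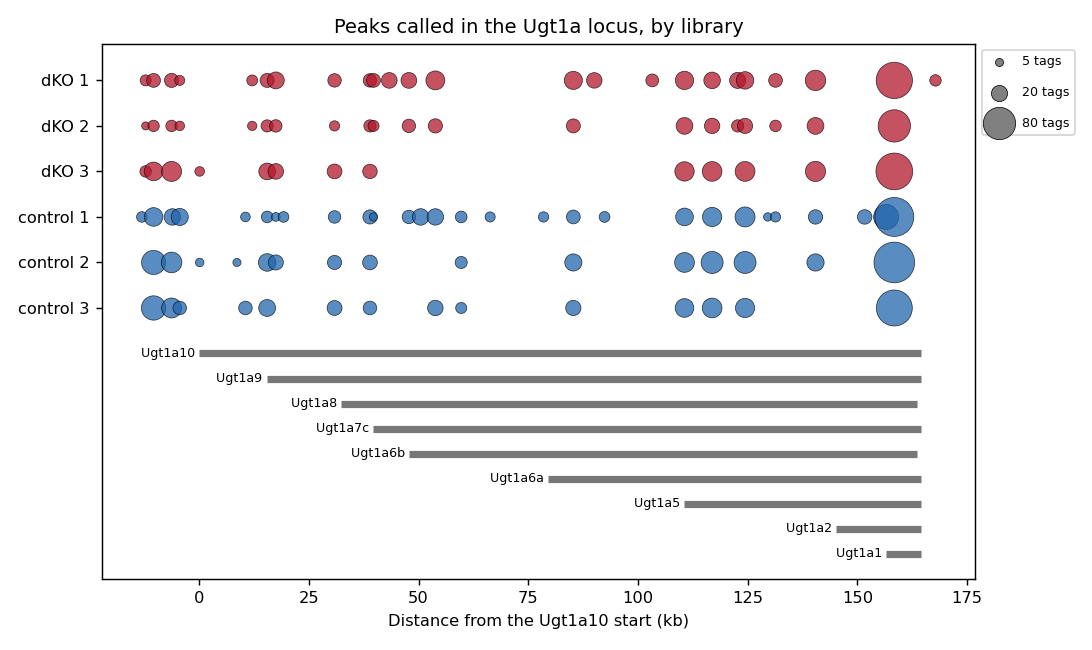
Peaks of each library at the Ugt1a locus by distance from the Ugt1a10 start (kb), with circle area giving normalized tags and grey bars the 9 nested gene spans. The largest circles, at the right, are the Ugt1a1 region with 80.1 to 104 normalized tags in dKO and 99.2 to 127 in control.

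Most called regions lay in one array on chromosome 5 (chr5:86885927-87622918, 737 kb), which holds the Ugt2 genes, enzymes for steroids, bile acids and drugs, and next to them Sult1b1, Sult1d1 and Sult1e1. Its 13 genes had 94 regions, of which 40 were shared, 3 were higher and 12 lower, with a median log2 fold change of -0.27. Over all shared regions, 8.19% were higher and 11.6% lower. The 3 higher regions are all those called higher at any UGT or SULT gene.

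**Figure D4:**
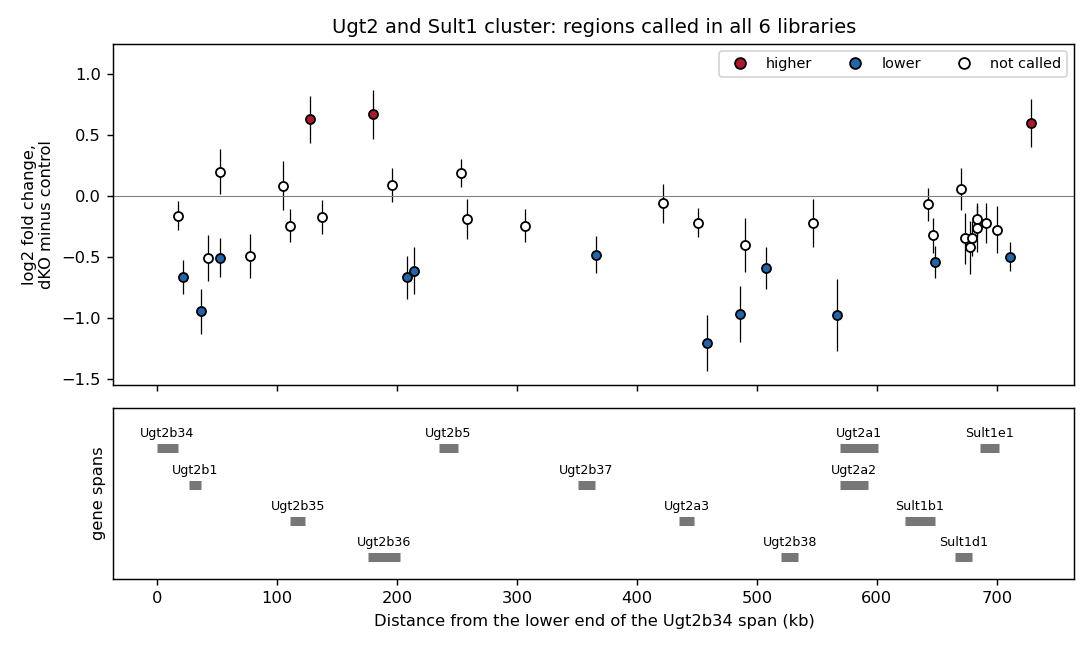
Log2 fold changes (dKO minus control) of the 40 shared regions of the chromosome 5 array by distance from the lower end of the Ugt2b34 span (kb), with bars for 1 SE, and below them the gene spans. The 12 lower and 3 higher regions are spread along the array, and 32 of the 40 values lie below 0.

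Among the 27 shared Ugt2 regions, 10 were lower (37.0%, against 11.6% of all shared regions) and 2 higher (7.41%, against 8.19%). Their median log2 fold change was -0.24. The largest fall was 10646 bp before the start of Ugt2a3 (chr5:87347691-87347991). This region had 10.3, 9.41 and 22.2 normalized tags in dKO 1, 2 and 3, against 31.6, 25.2 and 43.9 in control 1, 2 and 3. The groups did not overlap, and dKO 3 was the nearest to the controls. The means were 14.0 ± 7.14 in dKO and 33.6 ± 9.50 in control (SD over 3 libraries each). On the log2 scale it fell by 1.21 (SE 0.23, limma adjusted p = 0.00403). A second Ugt2a3 region, 3521 bp before the start, is the strongest of the gene (chr5:87340618-87340815, 57.3, 53.7 and 64.7 in dKO, against 81.0, 60.8 and 73.3 in control). It did not pass (log2 fold change -0.22, SE 0.12, adjusted p = 0.204).

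At Ugt2b1 the region over the start window printed above (chr5:86926373-86926711) was lower, with 8.45, 6.32 and 11.2 normalized tags in dKO and 15, 16.8 and 23.2 in control. Every dKO library lay below every control library. The log2 fold change was -0.95 (SE 0.18, limma adjusted p = 0.00437), and it was -0.81 within the narrow-peak libraries and -0.86 within the others. Further upstream of Ugt2b1, a region 11945 bp before the start was called in all control and no dKO libraries (chr5:86938344-86938553, 22.4, 17.8 and 24.8). The strongest Ugt2b1 region, 15817 bp before the start (chr5:86942220-86942421), had 18.9, 13.1 and 24.2 in dKO and 24.2, 25.7 and 33.2 in control. Its groups met at 24.2, and its log2 fold change was -0.51 (SE 0.16, adjusted p = 0.0370). Without dKO 2 the adjusted p was 0.205, without dKO 1 0.103 and without control 3 0.136. With all libraries it was 0.0790 after quantile normalization, 0.0876 after cyclic loess, 0.0565 without centring, 0.0946 with peaks scoring above the median of each list and 0.0556 with peak width class as a term.

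Ugt2b34 had a lower region 4049 bp before its start (chr5:86910900-86911073), with 19.6, 14.6 and 22 in dKO and 31.4, 26.9 and 36.0 in control. The groups did not overlap (log2 fold change -0.66, SE 0.14, limma adjusted p = 0.00590, and 0.0516 without dKO 2). The region over the Ugt2b34 start, the strongest of the gene, had 32.1, 26.7 and 34.2 in dKO and 39.7, 32.6 and 36.4 in control (log2 fold change -0.16, SE 0.12, adjusted p = 0.348). It did not pass, and its groups overlapped.

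Ugt2b36 had regions that went both ways. Lower regions lay 5126 bp before its start (chr5:87097573-87097789, 11.0, 8.0 and 8.69 in dKO, against 16.7, 17.9 and 13.2 in control, log2 fold change -0.67, SE 0.18, limma adjusted p = 0.0187) and 11329 bp before it (chr5:87103773-87103995, 11.7, 7.37 and 16, against 14.6, 20.9 and 20.6, log2 fold change -0.62, SE 0.19, adjusted p = 0.0387). Inside the gene a region was higher in all dKO libraries (chr5:87069273-87069524), with 12.2, 11.7 and 15.2 in dKO and 5.48, 9.86 and 9.87 in control. Its log2 fold change was 0.67 (SE 0.20, adjusted p = 0.0308). Without 1 library in turn, the nearer lower region had adjusted p of 0.0809 (dKO 2), 0.0571 (control 1) and 0.0619 (control 2). The farther one had 0.101 (dKO 1), 0.207 (dKO 2), 0.108 (control 2) and 0.108 (control 3). The higher one had 0.0741 (dKO 1), 0.123 (dKO 2), 0.0571 (dKO 3) and 0.0942 (control 1). With all libraries, the farther one had 0.0513 when regions called in at least 3 libraries were tested and 0.05004 with peak width class as a term, and the higher one had 0.0542 after cyclic loess and 0.0514 without centring. The strongest Ugt2b36 region lay at its start and lacked a peak in dKO 2 only, with 18.0 and 21.6 in dKO 1 and dKO 3, against 17.6, 24.5 and 23.2 in control.

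At Ugt2b35 a region beyond the end of the gene was higher (chr5:87016926-87017110), with 40, 27.2 and 40.1 in dKO and 16.5, 22.8 and 33.8 in control. The groups overlapped at dKO 2 and control 3 (log2 fold change 0.63, SE 0.19, limma adjusted p = 0.0346). The call was lost without dKO 1 (0.147), dKO 2 (0.0794), dKO 3 (0.0623), control 1 (0.122) or control 2 (0.0594), and with all libraries but no centring (0.0655). About 1 kb from it lay the strongest Ugt2b35 region, called only in dKO 1 (44.9) and dKO 2 (25.4).

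Ugt2b37 had a lower region 1238 bp before its start (chr5:87255938-87256115), its strongest, with 17.8, 14.4 and 19.7 in dKO and 24.7, 20.7 and 32.2 in control. The groups did not overlap (log2 fold change -0.48, SE 0.15, limma adjusted p = 0.0416), and the call was lost when any library but control 2 was left out (0.0543 to 0.166). It was also lost after quantile normalization (0.0760), after cyclic loess (0.0910), without centring (0.0570), with peaks scoring above the median of each list (0.109) and with peak width class as a term (0.0509). All 4 regions linked to Ugt2b38 were shared, and 2 were lower. The strongest of the gene (chr5:87375935-87376236) had 12.5, 10.8 and 23.5 in dKO and 33.7, 21.1 and 42.4 in control, and dKO 3 exceeded control 2 (log2 fold change -0.97, SE 0.23, adjusted p = 0.0115). The other (chr5:87397026-87397214) had 8.80, 6.95 and 13.3 in dKO and 15.1, 13.8 and 17.2 in control, with no overlap (log2 fold change -0.59, SE 0.17, adjusted p = 0.0287). Without dKO 1 these were 0.0645 and 0.109, and without dKO 2 0.0773 and 0.152. The second was also lost without control 1 (0.0625) and control 3 (0.0921).

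The region linked to Ugt2a1, a gene first known from olfactory tissue, was lower (chr5:87456337-87456574). It had 9.73, 7.42 and 15.2 in dKO and 20.4, 13.1 and 41.0 in control, and the groups overlapped (log2 fold change -0.98, SE 0.29, limma adjusted p = 0.0326). Without 1 library in turn the adjusted p was 0.113 (dKO 1), 0.150 (dKO 2), 0.0728 (control 1) and 0.111 (control 3), and it was 0.0581 with all libraries and peak width class as a term. Ugt2b5 had 0 called regions of 2 shared by limma, and 0 with an unadjusted p under 0.05. Its strongest (chr5:87143189-87143361) had 35.4, 26.3 and 33.4 in dKO and 28.5, 29.6 and 27.9 in control (log2 fold change 0.19, SE 0.12, adjusted p = 0.267), so that dKO 1 and dKO 3 were above all controls and dKO 2 below them.

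In the Ugt3 genes, whose human counterparts use sugars other than glucuronic acid, 0 of 6 shared regions were called by limma (median log2 fold change -0.13, lowest adjusted p = 0.0653), and 2 had an unadjusted p under 0.05. The region over the Ugt3a1 start (chr15:9279698-9279970) had 14.7, 14.3 and 17.4 normalized tags in dKO and 15.3, 20.1 and 17.6 in control (log2 fold change -0.12, SE 0.15, adjusted p = 0.607). The strongest Ugt3a2 region (chr15:9335526-9335720) had 12.2, 11.0 and 14.6 in dKO and 12.8, 17.1 and 16.3 in control (log2 fold change -0.21, SE 0.15, adjusted p = 0.364). At both genes the groups overlapped.

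Of 27 Sult1 regions, 19 (70.4%) were shared (median log2 fold change -0.28). Among the shared ones 1 was higher (5.26%, against 8.19% of all shared regions) and 3 were lower (15.8%, against 11.6%). Sult1a1, the main sulfotransferase for small phenols, had its lower region over the start window printed above (chr7:126676340-126676514). It had 17.8, 20.6 and 33.7 normalized tags in dKO 1, 2 and 3, against 40.6, 38.3 and 44.7 in control 1, 2 and 3. All dKO libraries were below all controls, and dKO 3 lay closest to them. The means were 24.0 ± 8.49 in dKO and 41.2 ± 3.24 in control (SD over 3 libraries each), and the log2 fold change was -0.74 (SE 0.16, limma adjusted p = 0.00744). The log2 fold change was -0.91 within the narrow-peak libraries and -0.39 within the others.

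Sult1b1, which sulfates thyroid hormones, has an outer and an inner annotated start. The region at the outer start, in the window printed above, was lower (chr5:87538162-87538366, 15.6, 14.6 and 16.4 in dKO, against 23.1, 23.3 and 26.1 in control). The dKO values lay close together and below all controls (log2 fold change -0.54, SE 0.13, limma adjusted p = 0.0121), and the adjusted p was 0.0548 without dKO 1 and 0.0502 without dKO 2. At the inner start, the strongest region (chr5:87536122-87536388) had 23.4, 18.5 and 25.6 in dKO and 26.5, 25.5 and 37.6 in control (log2 fold change -0.32, SE 0.15, adjusted p = 0.133). That difference did not pass, and dKO 3 slightly exceeded control 2.

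Sult1e1, the oestrogen sulfotransferase, had a lower and a higher region, both upstream of its start. The lower one, 9616 bp before the start (chr5:87601141-87601313), had 33.5, 27.5 and 43.0 in dKO and 54.7, 47.5 and 50.2 in control. The groups did not overlap (log2 fold change -0.50, SE 0.12, limma adjusted p = 0.0106, and 0.0860 without dKO 2). The higher one, 26557 bp before the start (chr5:87618082-87618254), had 16.1, 12.5 and 12.0 in dKO and 11.4, 8.52 and 7.23 in control, also without overlap. Its log2 fold change was 0.60 (SE 0.20, adjusted p = 0.0449). Its call was lost without dKO 1 (0.180), dKO 2 (0.169), control 2 (0.0905) or control 3 (0.150). With all libraries it was lost after quantile normalization (0.0741), after cyclic loess (0.0900), without centring (0.0713), when regions called in at least 3 libraries were tested (0.0633), with peaks summed per region (0.0504) and with peak width class as a term (0.0589).

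Sult1d1, which acts on catecholamines in mice, had 0 called regions of 4 shared by limma, and 1 with an unadjusted p under 0.05. Its start region (chr5:87568915-87569118) had 14.6, 10.9 and 14.3 in dKO and 17.4, 16.9 and 19.2 in control (log2 fold change -0.35, SE 0.14, limma adjusted p = 0.10). All dKO values were below all controls although the difference did not pass. Sult1c2 had 0 of 4 called by limma and 1 with an unadjusted p under 0.05. Its strongest region (chr17:53846325-53846502) had 20.9, 18.0 and 20.4 in dKO and 21.3, 22.3 and 21.6 in control (log2 fold change -0.07, SE 0.13, adjusted p = 0.723). Sult1c1 had a single region, called in control 2 (3.97) and control 3 (3.98) only.

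Sult2 enzymes sulfate hydroxysteroids and bile acids. Of 36 Sult2 regions, 9 (25.0%) were shared (median log2 fold change -0.24). Among the shared ones 2 were lower (22.2%, against 11.6% of all shared regions) and 0 higher (against 8.19%). Both lower regions were linked to Sult2a7, at 32414 and 25467 bp from its span. The farther one, the strongest Sult2 region that was shared (chr7:14525317-14525558), had 31.8, 28.0 and 39.4 normalized tags in dKO 1, 2 and 3, against 57.1, 50.4 and 53.5 in control 1, 2 and 3. The means were 33.1 ± 5.8 in dKO and 53.7 ± 3.35 in control (SD over 3 libraries each), and the log2 fold change was -0.63 (SE 0.11, limma adjusted p = 0.00270). The nearer one (chr7:14518376-14518605) had 20.2, 16.9 and 27.8 in dKO and 36.1, 32.3 and 45.6 in control (log2 fold change -0.74, SE 0.14, adjusted p = 0.00485). In both, every dKO library was below every control library.

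Sult2a8, a bile acid sulfotransferase of mouse liver, had 11 regions and none called in all 6 libraries, so none entered the test over all 6. Over its inner start window, printed above, a region was called in all control and no dKO libraries (chr7:14438587-14438790, 16.2, 24.9 and 24.9 normalized tags). A region 972 bp after that start was called in all dKO and no control libraries (chr7:14437491-14437668, 16, 11.6 and 17.7). Between them, dKO 1 (11.2) and dKO 2 (9.88) had a further peak. These peaks next to the inner start were thus called at different positions in the 2 groups. A missing peak does not show a closed site, and the difference was not tested. At the outer start, control 1 (11.7) and control 2 (12.3) had a peak and no dKO library did. The strongest Sult2a8 region lay beyond the end of the gene (chr7:14403874-14404063) and was called in control 1 (21.1) and control 2 (26.2) only. One region (chr7:14421227-14421439) had 4.43 in dKO 1 and 6.14 in dKO 3, against 12.8, 14.6 and 10.8 in control. Another (chr7:14396537-14396746) had 7.93, 6.06 and 11.1 in dKO, against 23.2 in control 1 and 16 in control 3. In both, every called dKO value was below every called control value. Over all regions, 1.57% were called in all dKO and no control libraries and 1.34% in all control and no dKO libraries. Among the 212 regions here there were 4 and 3. Regions called in all narrow-peak and no wide-peak libraries numbered 9 (4.25%, against 4.64% of all regions).

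**Figure D5:**
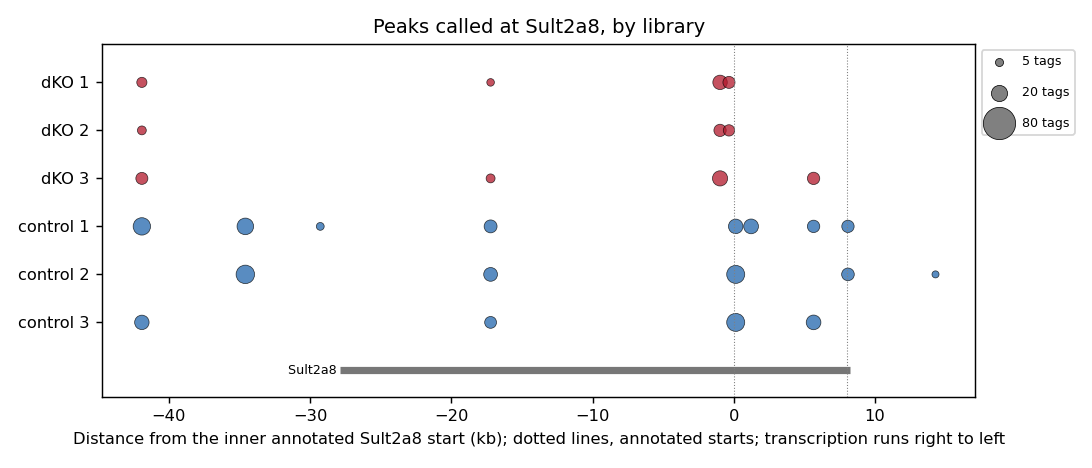
Peaks of each library at Sult2a8 by distance from its inner annotated start (kb), with circle area giving normalized tags, dotted lines the annotated starts and the grey bar the gene span, transcribed from right to left. At the start itself the controls have peaks of 16.2 to 24.9 normalized tags and the dKO libraries none, while just left of it all dKO libraries have peaks of 11.6 to 17.7.

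The other Sult2a genes had few regions, most of them weak. Sult2a1 had 1 shared region (chr7:13814029-13814231), with 8.10, 7.74 and 13.2 in dKO and 13.7, 13.8 and 14.9 in control. The groups did not overlap, and the difference did not pass (log2 fold change -0.48, SE 0.17, limma adjusted p = 0.0593). The strongest Sult2a6 region (chr7:14202588-14202768) had 15, 11.9 and 13.6 in dKO and 18.7, 12.6 and 9.98 in control (log2 fold change 0.07, SE 0.20, adjusted p = 0.829). That of Sult2a5 (chr7:13678208-13678419) had 6.18, 7.58 and 6.93 in dKO and 10.1, 9.29 and 7.01 in control (log2 fold change -0.24, SE 0.19, adjusted p = 0.381). Neither passed. The single Sult2a2 region was called in all dKO libraries (chr7:13751877-13752052, 5.30, 4.65 and 5.10) and no control library. The single regions of Sult2a3 (5.89 in dKO 1) and Sult2a4 (4.02 in control 2 and 3.81 in control 3) were called in 1 group only.

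Sult2b1, which sulfates cholesterol, had 0 called regions of 2 shared by limma, and 0 with an unadjusted p under 0.05. The stronger (chr7:45739450-45739622) had 9.27, 9.72 and 11.4 in dKO and 7.13, 9.24 and 9.25 in control, and every dKO library was above every control library (log2 fold change 0.29, SE 0.16, limma adjusted p = 0.233). A weak region inside the gene was called in all dKO libraries and no control library (chr7:45732193-45732417, 6.94, 4.34 and 4.44).

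In Sult3 to Sult6, 9 of 18 regions were shared (median log2 fold change -0.15). Among the shared ones 2 were lower (22.2%, against 11.6% of all shared regions) and 0 higher (against 8.19%). The lower Sult6b2 region, 1128 bp after the start (chr6:142803211-142803465), had 5.07, 4.34 and 5.10 normalized tags in dKO and 7.98, 8.38 and 8.58 in control. The groups did not overlap (log2 fold change -0.62, SE 0.14, limma adjusted p = 0.0105, and 0.0520 without dKO 2). The strongest Sult6b2 region (chr6:142785423-142785673) had 7.87, 7.16 and 7.65 in dKO and 6.71, 7.75 and 7.01 in control (log2 fold change 0.13, SE 0.15, adjusted p = 0.576), with overlap.

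The lower Sult5a1 region (chr8:123162880-123163079), the strongest of its gene, had 11.3, 11.1 and 23.9 in dKO and 32.6, 17.9 and 33.9 in control. dKO 3 exceeded control 2 (log2 fold change -0.80, SE 0.24, limma adjusted p = 0.0336). The log2 fold change was -1.33 within the narrow-peak libraries and -0.14 within the others, and the call was lost without dKO 1 (0.156), dKO 2 (0.150), control 1 (0.127) or control 3 (0.108). With all libraries it was lost after quantile normalization (0.0537), after cyclic loess (0.0591) and with peak width class as a term (0.0551). Sult3a2 had 0 called regions of 4 shared by limma, and 1 with an unadjusted p under 0.05. Its strongest (chr10:33816971-33817226) had 7.29, 6.79 and 9.48 in dKO and 7.93, 12.3 and 10.1 in control (log2 fold change -0.26, SE 0.17, adjusted p = 0.313). The strongest Sult3a1 region was called in 5 libraries (9.33, 7.94 and 6.74 in dKO, against 6.81 in control 1 and 3.54 in control 2). Sult4a1, a brain-enriched member, had 1 weak region, with 5.25, 4.60 and 5.16 in dKO and 6.23 in control 1.

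The wider machinery of conjugation was described from a list of 39 genes for supply of the sugar and sulfate donors, related enzymes, transporters and regulating factors, of which 36 had shared regions. Of 135 shared regions, 16 were higher (11.9%, against 8.19%), 26 were lower (19.3%, against 11.6%) and 93 passed in neither direction, with a median log2 fold change of -0.14. For the donors, Ugdh, which makes UDP-glucuronic acid, had 0 called regions of 4 by limma, also at an unadjusted p of 0.05. Papss1 and Papss2, which make PAPS, had 2 of 11 and 1 of 9 higher and 0 lower.

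The higher regions with the smallest p were at Abcc4, a basolateral exporter of conjugates, where 6 of 9 shared regions were higher and 0 lower. The first (chr14:118706203-118706489) had 52.6, 46.6 and 57.1 normalized tags in dKO and 27.8, 35.9 and 28.9 in control (log2 fold change 0.80, SE 0.12, limma adjusted p = 0.00154). The next had 18.9, 17.9 and 15.2 in dKO and 7.61, 8.14 and 9.31 in control (chr14:118591618-118591822, log2 fold change 1.03, SE 0.18, adjusted p = 0.00258). The third had 18.5, 15.6 and 13.8 in dKO and 9.95, 5.60 and 6.56 in control (chr14:118737332-118737569, log2 fold change 1.11, SE 0.21, adjusted p = 0.00439). In all 3, every dKO library lay above every control library.

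The lower regions with the smallest p were at Abcg2, a canalicular exporter of sulfate conjugates, at Hnf4a and at Nat2, an arylamine acetyltransferase. The Abcg2 region (chr6:58610942-58611217) had 6.99, 5.54 and 11.8 in dKO and 20.8, 22.3 and 17.7 in control (log2 fold change -1.21, SE 0.19, limma adjusted p = 0.00174). The Hnf4a region (chr2:163540757-163540979) had 36.1, 35.6 and 57.0 in dKO and 73.5, 76.9 and 75.6 in control (log2 fold change -0.77, SE 0.13, adjusted p = 0.00222). The Nat2 region (chr8:67495396-67495569) had 14.7, 13.5 and 24.9 in dKO and 37.4, 31.6 and 33.4 in control (log2 fold change -0.90, SE 0.16, adjusted p = 0.00280). No dKO library reached a control library in any of these, and dKO 3 was the nearest each time. Among the regulating factors, Cebpa had 4 of 5 shared regions lower, and Nr1i2, which encodes PXR, 2 of 3. Nr1i3, which encodes CAR, had 0 of 1 called.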

How the data were processed

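Omni-ATAC libraries of sorted liver nuclei, 3 dKO and 3 control, were analysed. The reads were processed on mm10 with HOMER 4.11, SAMtools 1.10, Picard and Trim Galore 0.6.4, per the submitters' processing notes. Aligner, filters, cut-site shift, peak options and library depth are not stated in the sources used here, so no counting interval is given. Each library has its own peak list, per the file headers. The deposited lists give a normalized tag count (a signal scaled to depth by the authors), the share of a peak's tags near its centre (a fraction), a score, a local fold with its p-value, and a clonal fold (both ratios). The normalized tag count was analysed, and the score and the widths served as filters and classes. The lowest deposited score was 35.5 and the lowest deposited local fold 4 in every list.

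Overlapping peaks of the autosomes and X were merged, and regions were linked to the nearest protein-coding span of RefSeq GRCm38.p6 within 50 kb. Regions called in all 6 libraries were tested as log2(value + 1), each library centred on its median, in R 4.3.3 by limma 3.58.1 (trend option), with group as the only term, 2-sided, adjusted by Benjamini-Hochberg at 0.05. Fold changes are dKO minus control on that scale, which understates weak regions. The fit was tested on simulated data.

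The members and gene lists were chosen with earlier results of these data known. Named are the called regions, up to 15 per direction by smallest p, the strongest region of each gene, regions called in every library of 1 group only, and 3 regions per direction of the conjugation list. Some items were added after their values were seen. They are the Ugt2b36 region at 87103773, the start region of Ugt1a1 and other Ugt1a6b, Ugt1a7c and Sult2a8 regions. The counts at single genes of the conjugation list were added in the same way. Alternatives changed the normalization, pseudocount, filters, merging, linking, model terms and libraries. Some planned items are not reported here. No genome was used, so exons, introns and UTRs were not assigned.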

Additional observations from a re-analysis of the deposited data

How the results depend on the processing

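No called region changed direction under any alternative run, all of which reused libraries that gave the calls. Among the 21 called regions, both Sult2a7 regions, the farther upstream Ugt2a3 region, the Ugt2b1 start region, the Ugt1a10 region and the Sult1a1 start region kept their call in each alternative that used both width classes and tested them. At the UGT and SULT genes the main counts of 3 higher and 18 lower became 1 higher with cyclic loess and 0 higher without centring. They became 8 higher with regions called in at least 3 libraries (119 tested, 6.72%, against 6.55% over all regions). Peaks scoring above the median of each list gave 1 higher and 6 lower (30 tested), and links within 10 kb gave 10 lower (57 tested). With peak width class as a term the counts were 2 higher and 13 lower, and 6 of the 21 calls were lost. The shares were 2.56% and 16.7%, against 8.27% and 11.5% of all shared regions. Within the narrow-peak libraries 11 were lower. Within the wide-peak libraries 0 were higher and 0 lower by limma, with 2 and 13 at an unadjusted p under 0.05. Both within-class fits rest on 1 library in one group, which is assumed to vary like the others. Their counts do not show an excess of lower regions at these genes. In the narrow-peak fit the lower share was not above that over all shared regions. The median log2 fold change was -0.20 within the narrow-peak libraries, against -0.03 over all shared regions. Within the wide-peak libraries it was -0.22, against 0.01. Over all shared regions, the counts of 4240 higher and 5995 lower became 2562 higher without centring, 2488 higher and 2232 lower with peaks scoring above the median (25405 tested), and 0 and 0 in the wide-peak libraries, where 7516 had an unadjusted p under 0.05. Leaving out 1 library in turn gave 0 to 3 higher and 6 to 21 lower regions at these genes, and 1257 to 5174 higher and 1402 to 8123 lower over all regions. The lowest counts came without dKO 2, with 6 lower, followed by dKO 1, with 10. Over all regions the order was the same, with 1402 and 2061 lower. The cause was not tested. The shift of the median log2 fold change of all regions between scalings stayed below 0.1, from -0.08 without centring to 0.00 with quantile normalization.

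The replicate number as a block raised the counts at these genes to 4 higher (5.13%) and 25 lower (32.1%), and all 21 calls were kept. Over all shared regions the same term gave 10.5% higher and 14.3% lower, against 8.19% and 11.6% without it. The numbers do not pair the libraries in the labels, and correlations of deviations between same-numbered libraries were 0.15, -0.03 and 0.23. The deposited lists give no total depth, so counting error is unknown, and regions missing a peak in some library were tested only in the alternative with at least 3 libraries (41 more at these genes).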

Other observations

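Of the 212 regions, 73 (34.4%) were called only in narrow-peak libraries, against 23.1% of all regions, and 9 of these in all 3 of them (4.25%, against 4.64% of all regions). Control 1 alone held 26 of the 50 regions seen in 1 library (52.0%, against 28.6% over all regions). A region linked to Ugt2b5 (chr5:87131058-87131230) had 33.0 normalized tags in dKO 1 and 21.6 in dKO 2, against 6.44 in control 1, and no peak in the other libraries. When regions called in at least 3 libraries were tested, its log2 fold change was 2.03 (limma adjusted p = 0.00258), from narrow-peak libraries only.

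That test added 41 regions at these genes that lacked a peak in some library, of which 6 were higher and 4 lower at an adjusted p of 0.05. No share over all regions of that kind was taken. Of all 119 regions at these genes in that test, 6.72% were higher and 17.6% lower. Over all 76393 regions in it, 6.55% were higher and 8.41% lower. The higher ones were linked to Ugt2b5, Ugt1a7c, Ugt2b35, Ugt1a8, Ugt2b34 and Sult1d1, with log2 fold changes from 0.58 to 2.03. The Ugt1a7c region (chr1:88095096-88095214), like that of Ugt2b5, was called in narrow-peak libraries only. It had 14.6 in dKO 1 and 9.51 in dKO 2, against 5.27 in control 1. The Ugt2b35 region lacked a peak in dKO 3 and control 3, the Ugt1a8 region in control 3 and the Ugt2b34 region in control 2. Among the lower ones, a Ugt1a10 region (chr1:88050907-88051086) had a log2 fold change of -1.02 (limma adjusted p = 0.0212) and a Ugt2a3 region (chr5:87373289-87373455) one of -1.07 (0.0216), and both lacked a peak in dKO 3 and in 1 control library. The Sult2a8 regions starting at 14421227 and 14396537 were also lower, with log2 fold changes of -1.16 (limma adjusted p = 0.00633) and -1.09 (0.00952). The first lacked a peak in dKO 2 and the second in control 2, and missing values were left out of the fit. These regions were picked after their values were seen.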
